A study of Mus musculus with 4 samples.

Results

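The mitochondrial ribosomal protein genes are the nuclear genes whose symbols begin with Mrpl (large subunit) or Mrps (small subunit) followed by a number. The symbol pattern matched 79 of the 13834 genes in the table. A pseudogene row, Mrpl23-ps1, was dropped, which left 78 genes, 49 Mrpl and 29 Mrps. All 78 passed the filter on low counts. RNA was sequenced from peritoneal macrophages of 4 samples, 2 labelled Dnmt1 fl/fl and 2 labelled Dnmt1 KO, to ask how loss of the maintenance DNA methyltransferase Dnmt1 changes macrophage transcripts. The mice were 10 weeks old and had received thioglycolate broth into the peritoneal cavity 3 days earlier. Both genotypes carry the floxed Dnmt1 gene, and the labels give the Dnmt1 fl/fl genotype as wt. Dnmt1 KO mice also express Cre from the LysM promoter, which is active in myeloid cells at large and not in macrophages alone. The sources do not say whether a sample came from a single mouse or from pooled mice, so p-values measure the spread between these samples, which may be technical.

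Mitochondria have their own ribosome, which translates the 13 respiratory chain proteins encoded by mitochondrial DNA. Its ribosomal RNA is transcribed inside the mitochondrion, whereas all of its proteins are made from nuclear genes, translated in the cytosol and imported. Some of these proteins descend from bacterial ribosomal proteins and others are found only in mitochondrial ribosomes. The symbols do not follow the subunits in every case, since the products of Mrps30 and Mrps18a sit in the large subunit.

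RefSeq promoter sequences (GRCm38.p6, 250 bases before to 50 bases after each start) were held for 69 of the 78 genes, as 75 windows. They are shown because this gene group is widely transcribed from CpG-rich promoters without a TATA box, and because promoter CpG methylation is what Dnmt1 maintains, although no methylation was measured here. A median window held 21 CpG, against 20 for all genes tested and 7 for all promoters. The ETS letters CCGGAAG, on either strand, stood in 34.7% of the windows, against 17.6% for the genes tested and 8.86% for all 32851 promoters. The NRF1 letters GCGCANGCG (N, any base) stood in 21.3%, against 13.1% and 6.25%, and the YY1 letters AAGATGGCG in 10.7%, against 2.99% and 1.4%. At least one of these motifs occurred in 42 windows (56.0%, against 29.7% of the windows of the genes tested). All motifs were searched on both strands, and overlapping matches were counted as 1 window. Sp1 letters (GGGCGG) were found in 52.0% of the windows and 61.3% of those of the genes tested, and TATAAA in 6.67% and 7.19%. The 125 bases before the start are given for genes that the results turn on, 5′ to 3′ on the gene's own strand, with ETS, NRF1 or YY1 letters in capitals. The first set are genes well above Dnmt1 fl/fl in Dnmt1 KO replicate 1, some with these letters and some without. Mrpl43, Mrpl52, Mrpl51, Mrps18a and Mrpl12 have them, whereas Mrpl28, Mrpl41 and Mrps36, which were added after their values were seen and lie further above Dnmt1 fl/fl in that library than Mrps18a, have none in their windows. The second set, Mrpl32, Mrps30 and Mrpl37, are genes that departed from the common pattern.
Mrpl43, chr19:45006443-45006567, minus strand: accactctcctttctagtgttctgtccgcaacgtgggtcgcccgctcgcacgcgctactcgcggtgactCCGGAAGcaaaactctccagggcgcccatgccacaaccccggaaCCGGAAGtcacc
Mrpl52, chr14:54426784-54426908, plus strand: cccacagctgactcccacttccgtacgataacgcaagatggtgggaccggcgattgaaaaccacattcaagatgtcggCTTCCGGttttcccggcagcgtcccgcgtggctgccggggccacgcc
Mrpl51, chr6:125192075-125192199, plus strand: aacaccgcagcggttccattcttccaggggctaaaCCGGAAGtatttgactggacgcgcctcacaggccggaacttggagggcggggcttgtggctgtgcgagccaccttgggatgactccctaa
Mrps18a, chr17:46110879-46111003, plus strand: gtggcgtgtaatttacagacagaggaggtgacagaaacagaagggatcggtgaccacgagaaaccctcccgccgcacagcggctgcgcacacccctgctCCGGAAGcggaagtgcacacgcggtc
Mrpl12, chr11:120484512-120484636, plus strand: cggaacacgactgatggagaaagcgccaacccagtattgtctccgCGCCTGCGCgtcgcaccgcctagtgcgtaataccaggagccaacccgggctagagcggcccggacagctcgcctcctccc
Mrpl28, chr17:26123378-26123502, plus strand: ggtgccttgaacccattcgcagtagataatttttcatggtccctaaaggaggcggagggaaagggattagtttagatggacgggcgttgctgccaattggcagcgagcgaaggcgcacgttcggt
Mrpl41, chr2:24975099-24975223, minus strand: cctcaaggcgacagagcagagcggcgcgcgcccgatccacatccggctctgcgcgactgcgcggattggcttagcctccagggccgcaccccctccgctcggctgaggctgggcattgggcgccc
Mrps36, chr13:100744660-100744784, minus strand: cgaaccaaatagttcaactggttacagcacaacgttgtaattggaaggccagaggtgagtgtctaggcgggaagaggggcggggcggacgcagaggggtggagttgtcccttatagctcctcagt
Mrpl32, chr13:14613038-14613162, minus strand: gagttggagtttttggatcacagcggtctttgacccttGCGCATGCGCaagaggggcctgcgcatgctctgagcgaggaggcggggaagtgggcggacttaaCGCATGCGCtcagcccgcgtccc
Mrps30, chr13:118387253-118387377, minus strand: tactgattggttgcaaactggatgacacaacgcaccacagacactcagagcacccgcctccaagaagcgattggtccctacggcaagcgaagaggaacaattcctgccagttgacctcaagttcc
Mrpl37, chr4:107066867-107066991, minus strand: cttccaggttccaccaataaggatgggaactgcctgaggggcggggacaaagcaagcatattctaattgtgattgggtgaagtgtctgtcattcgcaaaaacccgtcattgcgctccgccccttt

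Library totals ran from 20228071 to 24198943 counts. The deleted gene came first as a check of the labels. Dnmt1 was measured at 86.6 and 67.0 CPM (the count relative to the library total, with TMM scaling) in Dnmt1 fl/fl and at 37.0 and 42.7 CPM in Dnmt1 KO. Its log2 fold change was -0.95 (SE 0.24), with an adjusted p of 1.00 in edgeR's quasi-likelihood test, and the genotypes did not overlap. Macrophage markers were present in every sample, all 8 of 8. Their summed level was 35500 and 34600 CPM in Dnmt1 fl/fl and 17900 and 21500 CPM in Dnmt1 KO. Lyz2, the LysM gene itself, made up most of that sum, and the 7 other markers summed to between 5740 and 6550 CPM in the 4 samples. Dnmt1 KO replicate 1 stood apart from the other libraries. Its 6 detected neutrophil markers of 8 summed to 734 CPM, against 181, 253 and 185 CPM in Dnmt1 fl/fl replicates 1 and 2 and Dnmt1 KO replicate 2, with Camp and Ngp absent from the table. Its 6 B cell markers of 6 summed to 40.7 CPM, against 126, 201 and 222 CPM. In bulk RNA, a change in the share of a cell type and a change in RNA per cell cannot be told apart. Log2 fold changes of the group, its classes, the related lists and the genes described in most detail are therefore also given without that library.

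The 78 genes did not separate the genotypes. They were high in Dnmt1 KO replicate 1 and mostly at or below the Dnmt1 fl/fl level in Dnmt1 KO replicate 2. Their summed level was 1720 and 1890 CPM in Dnmt1 fl/fl, 2550 CPM in Dnmt1 KO replicate 1 and 1680 CPM in Dnmt1 KO replicate 2. Relative to the Dnmt1 fl/fl mean, the sum was 1.41 times in Dnmt1 KO replicate 1 and 0.927 times in Dnmt1 KO replicate 2. Both symbol families showed it. Mrpl genes summed to 1120, 1230, 1660 and 1080 CPM, and Mrps genes to 603, 665, 886 and 592 CPM, in Dnmt1 fl/fl replicates 1 and 2 and Dnmt1 KO replicates 1 and 2.

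By edgeR's quasi-likelihood test, 0 of the 78 genes had an adjusted p under 0.05, and the background was 0.0% of the 12542 genes tested. At an unadjusted p under 0.05, 0 of 78 were called, against a background of 0.279% (35 genes). DESeq2 and limma-voom also called 0 of the 78, adjusted or not, against backgrounds of 0.00797% and 0.0% at an adjusted p under 0.05 and of 0.311% and 0.319% at an unadjusted p under 0.05. The fitted log2 fold change was above 0 for 72 of the 78 genes (92.3%), where 50.9% of all genes were above 0. Its median was 0.22 for all 78, for Mrpl and for Mrps genes alike, and 0.00 over all genes, with a range from -0.11 to 0.49. The median SD within genotypes, pooled, was 0.35 on the log2 scale. The difference exceeded a gene's own pooled SD in 15 of the 78 genes (19.2%), against 23.6% of all genes. The smallest p that exact permutation of 2 against 2 samples allows, two-sided, is 0.333. The absence of a call does not show that levels were equal, since the SEs of the 78 genes ran from 0.20 to 0.54 on the log2 scale.

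**Figure D1:**
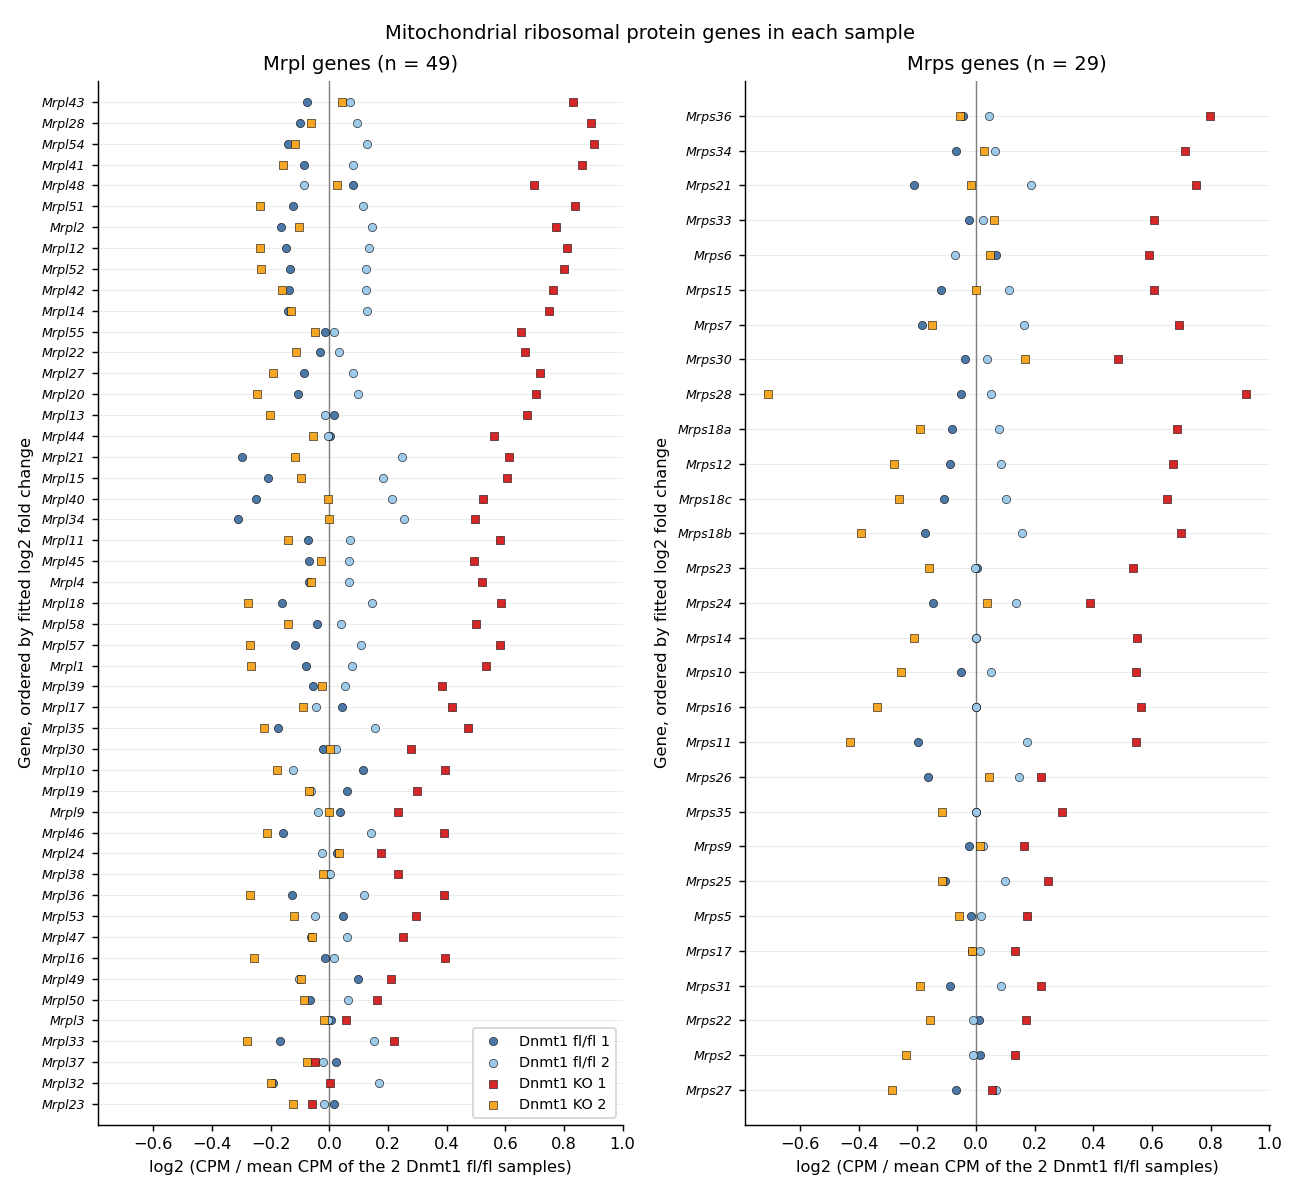
Each row is a gene and each point a sample, placed by log2 of its CPM over the mean CPM of the 2 Dnmt1 fl/fl samples (circles, Dnmt1 fl/fl; squares, Dnmt1 KO), with genes ordered by fitted log2 fold change. Dnmt1 KO replicate 1 (red) lies to the right of Dnmt1 KO replicate 2 (orange) in all 78 genes and is the highest sample in 74.

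The fitted direction depended on Dnmt1 KO replicate 1. Without it, 11 of the 78 genes had a log2 fold change above 0 (14.1%, background 49.6%) and the median was -0.12. The remaining Dnmt1 KO sample then lay below both Dnmt1 fl/fl samples in 50 genes (64.1%, background 32.2%) and above both in 3 (3.85%, background 32.4%). Without Dnmt1 KO replicate 2, 76 genes were above 0 (97.4%, background 48.7%) and the median was 0.53. An unadjusted p under 0.05 was reached by 44 genes (56.4%, background 27.6%). In that fit, 74 genes did not overlap and were higher (94.9%, background 41.0%), 2 did not overlap and were lower (2.56%, background 41.8%), and 15 genes (19.2%), 13 Mrpl and 2 Mrps, had an adjusted p under 0.05 from edgeR, against a background of 8.32% (1061 of 12754 genes). The lowest adjusted p was that of Mrpl28, at 0.0214 (log2 fold change 0.89, SE 0.19). In both fits a lone sample was assumed to vary like the samples of the other genotype. Without Dnmt1 fl/fl replicate 1 the median was 0.16, with 65 genes above 0 (83.3%, background 54.7%), 7 not overlapping and higher (8.97%, background 20.1%) and 4 lower (5.13%, background 20.0%). Without Dnmt1 fl/fl replicate 2 it was 0.31, with 73 genes above 0 (93.6%, background 51.9%), 23 not overlapping and higher (29.5%, background 23.0%) and 2 lower (2.56%, background 23.4%). By edgeR, 0 of the 78 genes had an adjusted p under 0.05 in these 2 fits, against backgrounds of 0.0155% and 0.0781%, and 0 had an unadjusted p under 0.05, against 0.333% and 0.656%. In them the spread came from the 2 Dnmt1 KO samples alone, with a common dispersion of 0.138, against 0.0297 and 0.0296 without Dnmt1 KO replicates 1 and 2, so these counts of 0 say nothing about stability. Scaling by library totals alone, without TMM, left 64 genes above 0 (82.1%) and a median of 0.13, but it also lowered all genes, of which 39.3% were above 0. Under that scaling 4 genes did not overlap and were higher (5.13%, background 5.94%) and 5 were lower (6.41%, background 10.6%), with 0 unadjusted calls (background 0.319%).

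**Figure D2:**
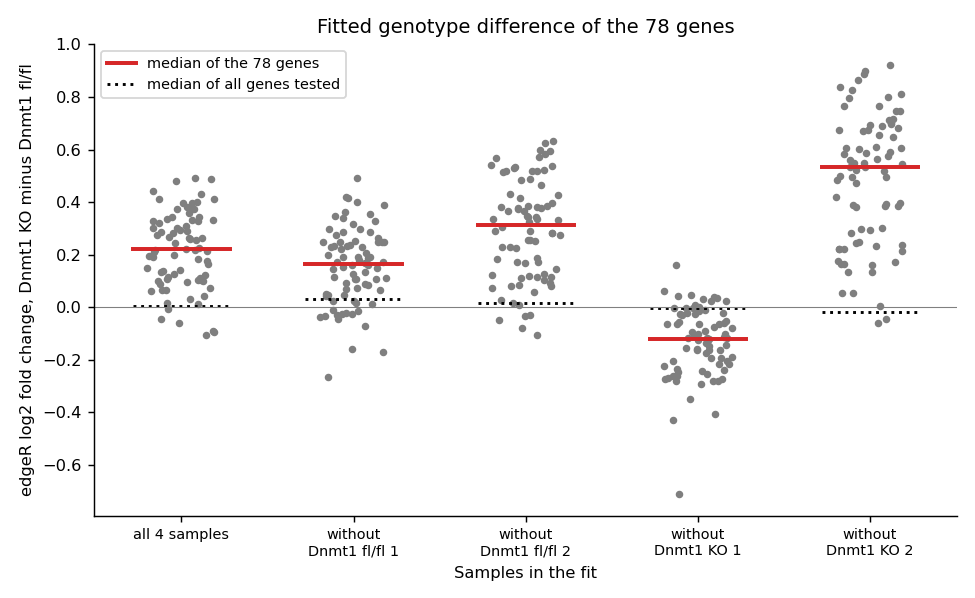
Each grey point is the edgeR log2 fold change (Dnmt1 KO minus Dnmt1 fl/fl) of 1 of the 78 genes, fitted with all 4 samples or without the sample named under the column (horizontal jitter only separates points). The red line is the median of the 78 genes, at 0.22 with all samples, -0.12 without Dnmt1 KO replicate 1 and 0.53 without Dnmt1 KO replicate 2, and the dotted line is the median of all genes tested.

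The difference between the Dnmt1 KO samples was shared by every gene of the group. Dnmt1 KO replicate 1 was above Dnmt1 KO replicate 2 in 78 of 78 genes, whereas this held for 49.3% of all genes tested. The median of this log2 difference was 0.65, a ratio of 1.56, and it ran from 0.03 in Mrpl37 to 1.63 in Mrps28. The ratio was at least 2 in 7 genes and under 1.1 in 3. Dnmt1 KO replicate 1 was above both Dnmt1 fl/fl samples in 74 genes (94.9%, all genes 41.0%). Dnmt1 KO replicate 2 was below both in 49 genes (62.8%, all genes 32.0%), between them in 26 and above both in 3. The Dnmt1 fl/fl samples also differed in a common direction, with replicate 2 higher in 59 genes (75.6%, all genes 50.1%) by a median of 0.13 on the log2 scale.

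The large subunit proteins of bacterial descent form the RNA-rich core of that subunit and its factor-binding stalk. Of the 30 such genes, 27 had a log2 fold change above 0, with a median of 0.20, and the median difference between the Dnmt1 KO samples was 0.68. In the fit without Dnmt1 KO replicate 1, 1 of the 30 was above 0 and the median was -0.12. Mrpl28 had the highest fitted value. Its level was 22.5 and 25.7 CPM in Dnmt1 fl/fl and 44.7 and 23.1 CPM in Dnmt1 KO, a log2 fold change of 0.49 (SE 0.35, adjusted p 1.00, edgeR). The Dnmt1 KO sample at 23.1 CPM lay inside the Dnmt1 fl/fl range, and Mrpl28 stood at -0.06 when Dnmt1 KO replicate 1 was left out. Mrpl12, which encodes the stalk protein that contacts translation factors, was at 26.4 and 32.1 CPM in Dnmt1 fl/fl and at 51.3 and 24.8 CPM in Dnmt1 KO. Its Dnmt1 KO samples thus fell on either side of both controls. Mrpl20, an RNA-binding protein of the large subunit, showed the same order, at 33.0 and 38.0 CPM in Dnmt1 fl/fl and 57.8 and 29.9 CPM in Dnmt1 KO.

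Mrpl24, another RNA-binding protein of the large subunit, was singled out after its values were seen for how little it varied. It was measured at 53.3 and 51.4 CPM in Dnmt1 fl/fl and at 59.1 and 53.6 CPM in Dnmt1 KO. The genotypes did not overlap, but the gap between 53.3 and 53.6 CPM was narrow and the log2 fold change was 0.11 (SE 0.20, adjusted p 1.00, edgeR), or 0.03 without Dnmt1 KO replicate 1. Mrpl32 stood at the low end of this group. Its level was 16.6 and 21.3 CPM in Dnmt1 fl/fl and 19.0 and 16.5 CPM in Dnmt1 KO, with a log2 fold change of -0.09 (SE 0.25), or -0.20 without Dnmt1 KO replicate 1. Dnmt1 fl/fl replicate 2 was its highest sample.

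Mrpl23 had the lowest level per length of the whole group. It was at 4.58 and 4.47 CPM in Dnmt1 fl/fl and at 4.34 and 4.15 CPM in Dnmt1 KO, which do not overlap, yet the log2 fold change was -0.09 (SE 0.32, adjusted p 1.00, edgeR), or -0.12 without Dnmt1 KO replicate 1. A share of 9.0% of its 100-base stretches also occurs in other genes, with the largest part in Mrpl23-ps1, so its count is uncertain.

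Large subunit proteins found only in mitochondrial ribosomes lie mostly on the outer face of the subunit. In 20 of these 21 genes the log2 fold change was above 0, with a median of 0.28 and a median difference between the Dnmt1 KO samples of 0.62. When Dnmt1 KO replicate 1 was left out, 3 of the 21 were above 0 and the median was -0.10. Mrpl43 (chromosome 19, 45004829 to 45006442, minus strand, GRCm38) had the highest value of this class. Its promoter, printed above, holds the ETS letters at 2 places. It was at 28.9 and 32.0 CPM in Dnmt1 fl/fl and at 54.1 and 31.4 CPM in Dnmt1 KO, giving 30.5 ± 2.15 against 42.8 ± 16.0 (SD, n = 2 each). The log2 fold change of Mrpl43 was 0.49 (SE 0.31, adjusted p 1.00, edgeR), and it came closest of the 78 genes to the threshold before adjustment, but it stood at 0.04 when Dnmt1 KO replicate 1 was left out.

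Among the same class, Mrpl51 and Mrpl52 had some of the widest gaps between the Dnmt1 KO samples. Mrpl51 was at 26.4 and 31.1 CPM in Dnmt1 fl/fl and at 51.4 and 24.4 CPM in Dnmt1 KO. Mrpl52 was at 19.8 and 23.7 CPM in Dnmt1 fl/fl and at 37.9 and 18.5 CPM in Dnmt1 KO. In both genes Dnmt1 KO replicate 2 was the lowest of the 4 samples and replicate 1 the highest. Mrpl54 had the third highest fitted value of the group, at 18.1 and 21.8 CPM in Dnmt1 fl/fl and 37.3 and 18.4 CPM in Dnmt1 KO.

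Mrps30 and Mrpl37 were the members of this class whose genotypes did not overlap, in opposite directions. Mrps30 was at 28.4 and 29.9 CPM in Dnmt1 fl/fl and at 40.8 and 32.7 CPM in Dnmt1 KO, so that both Dnmt1 KO samples lay above both controls. Its log2 fold change was 0.33 (SE 0.22, adjusted p 1.00, edgeR), and without Dnmt1 KO replicate 1 it was 0.16. Mrpl37 hardly varied, at 33.9 and 32.9 CPM in Dnmt1 fl/fl and 32.3 and 31.7 CPM in Dnmt1 KO, with a log2 fold change of -0.06 (SE 0.20), or -0.08 without Dnmt1 KO replicate 1. Neither promoter window held ETS or NRF1 letters, but that of Mrpl37 held the YY1 letters from base 27 of the transcribed side, counting the start as 1, outside the bases shown above.

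In the small subunit, proteins of bacterial descent build the head and platform that bind messenger RNA. Among these 16 genes, 15 had a log2 fold change above 0, with a median of 0.22, and the median difference between the Dnmt1 KO samples was 0.76, the widest of the 4 classes. With replicate 1 left out, 4 of the 16 were above 0 and the median was -0.18. Mrps28 showed the widest gap of all 78 genes. It was at 8.62 and 9.25 CPM in Dnmt1 fl/fl and at 16.9 and 5.47 CPM in Dnmt1 KO, a ratio of 3.09 between the Dnmt1 KO samples. Without Dnmt1 KO replicate 1 its log2 fold change was -0.71 (SE 0.29, adjusted p 1.00, edgeR), and it was the 1 gene of the 78 with an unadjusted p under 0.05 in that fit (1.28%, background 2.73%). Without Dnmt1 KO replicate 2 the value for Mrps28 was 0.92 (SE 0.26, adjusted p 0.0496, edgeR). The sign for Mrps28 thus depended on the Dnmt1 KO sample that was kept.

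Mrps21, at 24.8 and 32.7 CPM in Dnmt1 fl/fl and 48.3 and 28.4 CPM in Dnmt1 KO, had the highest fitted log2 fold change of the class at 0.41 (SE 0.32), and -0.02 without Dnmt1 KO replicate 1. Mrps2 had the lowest at -0.04 (-0.25 without that library), with 18.2 and 17.9 CPM in Dnmt1 fl/fl and 19.8 and 15.3 CPM in Dnmt1 KO. Mrps11 lay between them at 0.14 (SE 0.40), with 9.74 and 12.6 CPM in Dnmt1 fl/fl and 16.3 and 8.30 CPM in Dnmt1 KO. Its sign turned in several fits, with -0.43 without Dnmt1 KO replicate 1, -0.029 without Dnmt1 fl/fl replicate 1 and -0.032 with a correction for transcript length. Mrps11 and Mrpl46 overlap on opposite strands, and since the counting is not stated to use strand, reads of the overlap cannot be told apart.

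Small subunit proteins found only in mitochondrial ribosomes gave the smallest shifts, with 10 of 11 genes above 0 and a median log2 fold change of 0.13. Leaving out Dnmt1 KO replicate 1 left 3 of the 11 above 0 and a median of -0.12. Mrps36, whose product has also been assigned to the oxoglutarate dehydrogenase complex, was at 15.9 and 16.9 CPM in Dnmt1 fl/fl and at 28.5 and 15.8 CPM in Dnmt1 KO (log2 fold change 0.43, SE 0.33). The value of Mrps36 without Dnmt1 KO replicate 1 was -0.06. In Mrps33 the genotypes did not overlap, with 31.2 and 32.2 CPM in Dnmt1 fl/fl against 48.3 and 33.1 CPM in Dnmt1 KO (log2 fold change 0.36, SE 0.25). The value of Mrps33 was 0.06 without Dnmt1 KO replicate 1, and without Dnmt1 KO replicate 2 it was 0.61. The upper Dnmt1 fl/fl value and the lower Dnmt1 KO value of Mrps33 differed by less than the Dnmt1 fl/fl samples did. Mrps27, which encodes a pentatricopeptide repeat protein, had the lowest log2 fold change of the 78 genes at -0.11 (SE 0.27), and -0.29 without Dnmt1 KO replicate 1, with 12.1 and 13.3 CPM in Dnmt1 fl/fl and 13.2 and 10.4 CPM in Dnmt1 KO.

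Across the whole group, the genotypes did not overlap in 3 genes that were higher in Dnmt1 KO (3.85%, background 8.14%), Mrps30, Mrps33 and Mrpl24, and in 2 that were lower (2.56%, background 8.56%), Mrpl23 and Mrpl37. Both shares were below the share over all genes. The genes in which Dnmt1 KO replicate 1 was not the highest sample were Mrpl23, Mrpl32, Mrpl37 and Mrps27.

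Mammals carry 3 genes for relatives of the bacterial protein S18, each a separate protein of the mitochondrial ribosome. Mrps18a, the large subunit form, was at 23.3 and 26.0 CPM in Dnmt1 fl/fl and 39.6 and 21.6 CPM in Dnmt1 KO. Mrps18b was at 13.6 and 17.1 CPM against 24.9 and 11.7 CPM, and Mrps18c at 20.0 and 23.2 CPM against 33.9 and 18.0 CPM. In all 3 genes Dnmt1 KO replicate 1 was the highest sample and replicate 2 the lowest. Their log2 fold changes of 0.31 (SE 0.33), 0.25 (SE 0.41) and 0.26 (SE 0.35) were each smaller than their SE, and without Dnmt1 KO replicate 1 they were -0.19, -0.40 and -0.27.

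Levels of different genes were compared as CPM per kilobase of the longest annotated transcript, which depends on the annotation. The mean over the 4 samples ran from 1.18 ± 0.0492 CPM per kilobase (SD, n = 4) in Mrpl23 to 68.8 ± 21.1 in Mrps21, a span of 58.3 times, around a median of 12.2. After Mrps21 came Mrpl20 at 49.0 ± 15.5, Mrpl24 at 40.6 ± 2.48, Mrpl54 at 39.6 ± 15.0 and Mrps15 at 39.4 ± 9.41 CPM per kilobase. Mrps33, at 32.7 ± 7.31, was the third highest Mrps gene. The samples of these neighbours overlapped in range. Within each library, however, Mrps21 was above Mrpl20, at 50.9, 67.0, 98.9 and 58.3 CPM per kilobase against 40.8, 47.0, 71.3 and 36.9. At the low end, Mrpl47 stood at 2.37 ± 0.249, Mrps22 at 3.01 ± 0.274, Mrps35 at 3.80 ± 0.481, Mrps10 at 4.14 ± 1.04 and Mrpl19 at 4.15 ± 0.519 CPM per kilobase. Of the 77 pairs of neighbours in this order, 2 had sample ranges apart from each other, Mrps35 above Mrps22 and Mrpl47 above Mrpl23. Taken within libraries, 8 of the 77 pairs kept the same order in all 4. The order was much alike in every library, with Spearman's rho from 0.96 to 0.99 between libraries over the 78 genes, which share their lengths across libraries.

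**Figure D3:**
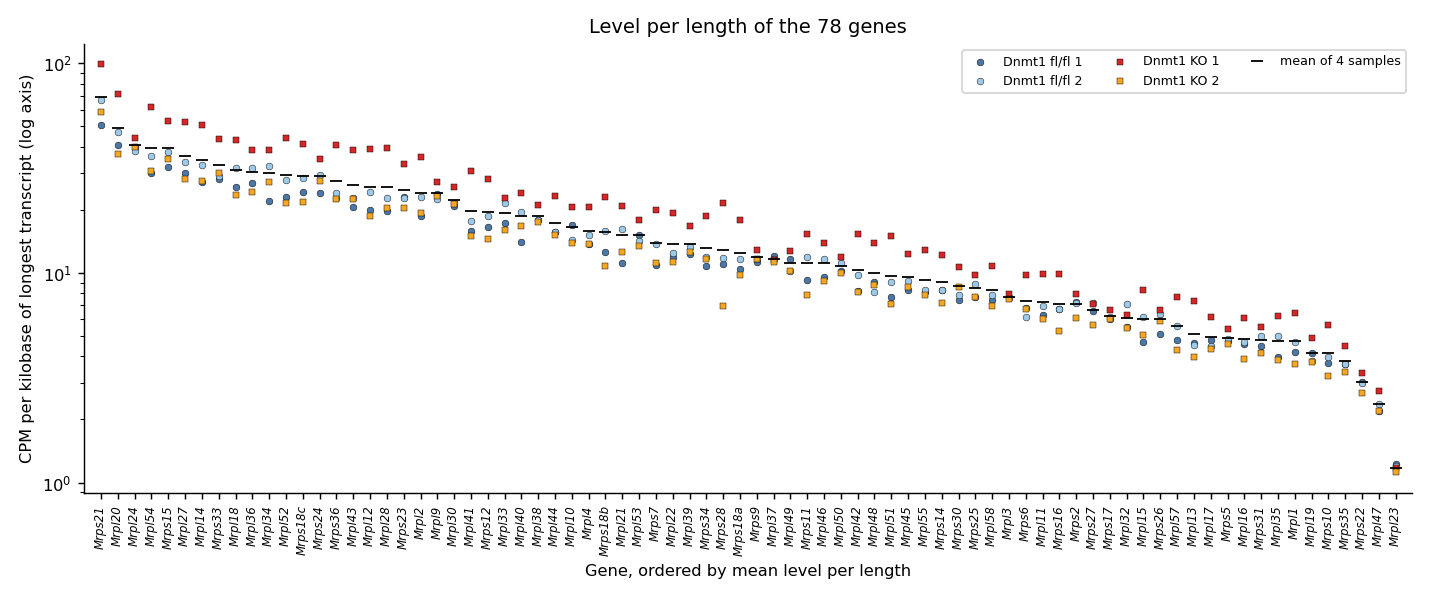
The level of each of the 78 genes in CPM per kilobase of its longest transcript (vertical log axis), with genes ordered by the mean of the 4 samples (black dash). Points are the samples, and red squares, Dnmt1 KO replicate 1, lie above the other samples in 74 of the 78 genes, while the order runs from Mrps21 at 68.8 to Mrpl23 at 1.18.

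Transcript length moved with the difference between the Dnmt1 KO samples. The 78 genes are short, with a median longest transcript of 1866.5 bases (488 to 7300), against 3361.5 bases over all genes tested. Over the 12380 genes with a length, the median log2 difference between Dnmt1 KO replicates 1 and 2 was 0.43 in the shortest of 4 equal length classes and 0.12, -0.11 and -0.45 in the longer ones. The 42, 18, 13 and 5 genes of the group in these classes had medians of 0.72, 0.55, 0.41 and 0.37, each above that of all genes of like length. Spearman's rho of this difference with length was -0.43 over the 78 genes and -0.41 over all genes, given as a description across genes of the same libraries. After a loess trend on length was removed from each library, the median difference between the Dnmt1 KO samples was 0.43 in the 78 genes and 0.08 over all genes, and Dnmt1 KO replicate 1 was above replicate 2 in 73 of 78 genes (93.6%, all genes 55.9%). The genotype comparison with this correction gave a median log2 fold change of 0.17, 68 genes above 0 (87.2%, background 59.0%) and 0 calls at an adjusted or an unadjusted p under 0.05 (background 0.0% and 0.372%, edgeR). The genotypes then did not overlap in 10 genes that were higher in Dnmt1 KO (12.8%, background 11.1%), among them Mrps30 and Mrpl43, and in 1 that was lower, Mrps27 (1.28%, background 7.49%). The part of length, and that of the neutrophil and B cell markers that stand apart in the same library, was not tested.

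**Figure D4:**
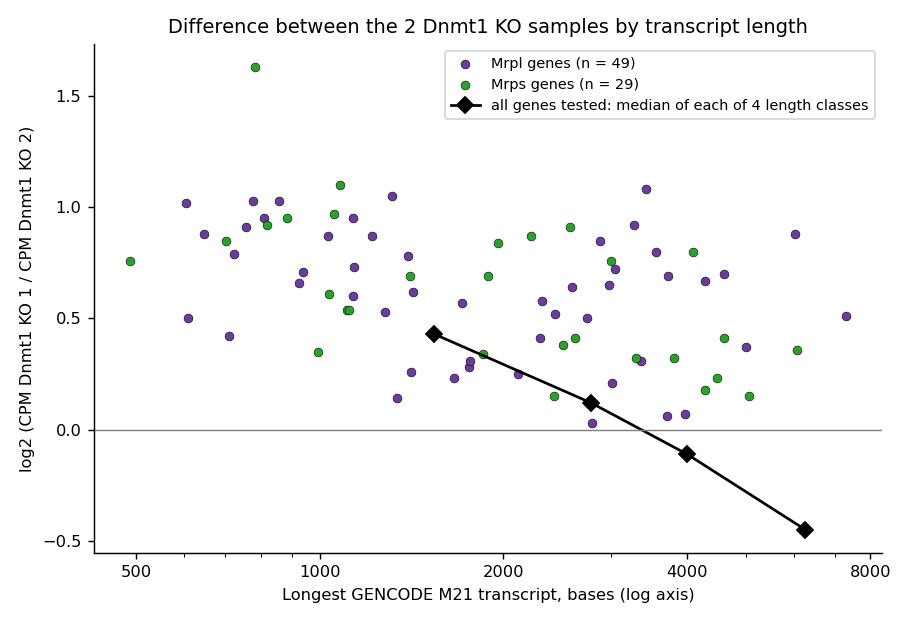
The log2 ratio of CPM in Dnmt1 KO replicate 1 to that in Dnmt1 KO replicate 2 (vertical) against the length of the longest transcript in bases (log axis), for 49 Mrpl and 29 Mrps genes. Diamonds are the medians of all genes in each of 4 length classes, falling from 0.43 to -0.45, while every one of the 78 points lies above 0.

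The other genes of mitochondrial translation did not share the pattern alike. Mitoribosomal proteins with other symbols came closest, with 4 of 5 tested genes above 0 and a median log2 fold change of 0.25, which became 2 of 5 and -0.12 without Dnmt1 KO replicate 1. Of these, Aurkaip1, a small subunit protein, had the highest value at 0.44, with 52.9 and 55.3 CPM in Dnmt1 fl/fl and 98.7 and 48.3 CPM in Dnmt1 KO, and its value without Dnmt1 KO replicate 1 was -0.17. Ptcd3, a small subunit pentatricopeptide repeat protein, had the lowest at -0.04 (0.04 without that library). Assembly factors, which modify, fold and mature the ribosomal RNA, were above 0 in 15 of 25 genes (median 0.03, from -0.42 in Mettl15 to 0.35 in Ybey), and in 10 of 25 without Dnmt1 KO replicate 1 (median -0.09). Translation factors were above 0 in 8 of 13 genes (median 0.08), and in 5 of 13 without that library (median -0.12). Tufm, the elongation factor that delivers aminoacyl-tRNA, had the highest value of these at 0.40, with 39.7 and 42.4 CPM in Dnmt1 fl/fl and 65.0 and 43.1 CPM in Dnmt1 KO, and without Dnmt1 KO replicate 1 it stood at 0.07. Mtfmt, which formylates the initiator tRNA, had the lowest at -0.36 (-0.12 without that library).

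The list of mitochondrial aminoacyl-tRNA synthetases, which charge the tRNAs used by this ribosome, also holds Gatb, Gatc and Qrsl1, which are not synthetases. Of its 20 genes, 3 were above 0, with a median log2 fold change of -0.04. Without Dnmt1 KO replicate 1, 7 of 20 were above 0, with a median of -0.03. Their values ran from -0.52 in Lars2 to 0.19 in Sars2, and Dnmt1 KO replicate 1 was above replicate 2 in 8 of 20. Lars2 was at 105 and 112 CPM in Dnmt1 fl/fl and at 92.4 and 58.5 CPM in Dnmt1 KO, and its log2 fold change without Dnmt1 KO replicate 1 was -0.89. Factors for replication, transcription and RNA handling of mitochondrial DNA were above 0 in 8 of 19 genes (median -0.03). Their values ran from -0.25 in Polg, the mitochondrial DNA polymerase, to 0.45 in Hsd17b10, a subunit of mitochondrial RNase P. Leaving out Dnmt1 KO replicate 1 gave 7 of 19 above 0 with a median of -0.06, and Polg stood at -0.02 and Hsd17b10 at 0.12.

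The 13 protein genes of mitochondrial DNA, whose transcripts the mitochondrial ribosome translates, did not show the high Dnmt1 KO replicate 1. Dnmt1 KO replicate 1 was above replicate 2 in 5 of the 13 genes, by a median of -0.09, and 9 of 13 had a log2 fold change above 0 with a median of 0.05. In the fit without that library, 11 of 13 were above 0 with a median of 0.10. Their values with all samples ran from -0.34 in mt-Co3 to 0.56 in mt-Nd4l, and without it these stood at -0.59 and 0.97. Both genes varied widely within Dnmt1 fl/fl. For mt-Co3 the levels were 118 and 230 CPM in Dnmt1 fl/fl and 159 and 116 CPM in Dnmt1 KO. For mt-Nd4l they were 3.51 and 7.77 CPM in Dnmt1 fl/fl and 5.50 and 11.1 CPM in Dnmt1 KO. The summed level of the 13 genes was 11400 and 12000 CPM in Dnmt1 fl/fl and 11700 and 12500 CPM in Dnmt1 KO. By contrast, the nuclear-encoded respiratory chain subunits, with which those products are assembled, were above 0 in 72 of 73 genes, with a median log2 fold change of 0.35 and a median difference between the Dnmt1 KO samples of 0.83. Once Dnmt1 KO replicate 1 was left out, 11 of the 73 were above 0, with a median of -0.14. Ndufb7, a subunit of complex I, had the highest value at 0.57, with 47.0 and 52.4 CPM in Dnmt1 fl/fl and 107 and 40.5 CPM in Dnmt1 KO, and its value without Dnmt1 KO replicate 1 was -0.30. Ndufb2 had the lowest at -0.00 (-0.28 without that library). The cytosolic ribosomal proteins, whose many processed pseudogenes make their counts uncertain, were above 0 in 78 of 79 genes, with a median of 0.22, from -0.06 in Rpl12 to 0.46 in Rplp2, and a median difference between the Dnmt1 KO samples of 0.50. The same omission gave 14 of 79 and -0.07, with Rplp2 at -0.11. In all of these lists 0 genes had an unadjusted p under 0.05 in edgeR's test with all samples. The median length was lowest, at 784 bases, for the mitochondrial DNA-encoded genes, which did not share the difference between the Dnmt1 KO samples. It was 1046 bases for the respiratory chain list, 1059 for the cytosolic ribosomal list, 2419 for the assembly factors and 2494 for the mitoribosomal proteins with other symbols. It was 2588 for the translation factors, 3166 for the replication, transcription and RNA factors and 3418 for the synthetase list.

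**Figure D5:**
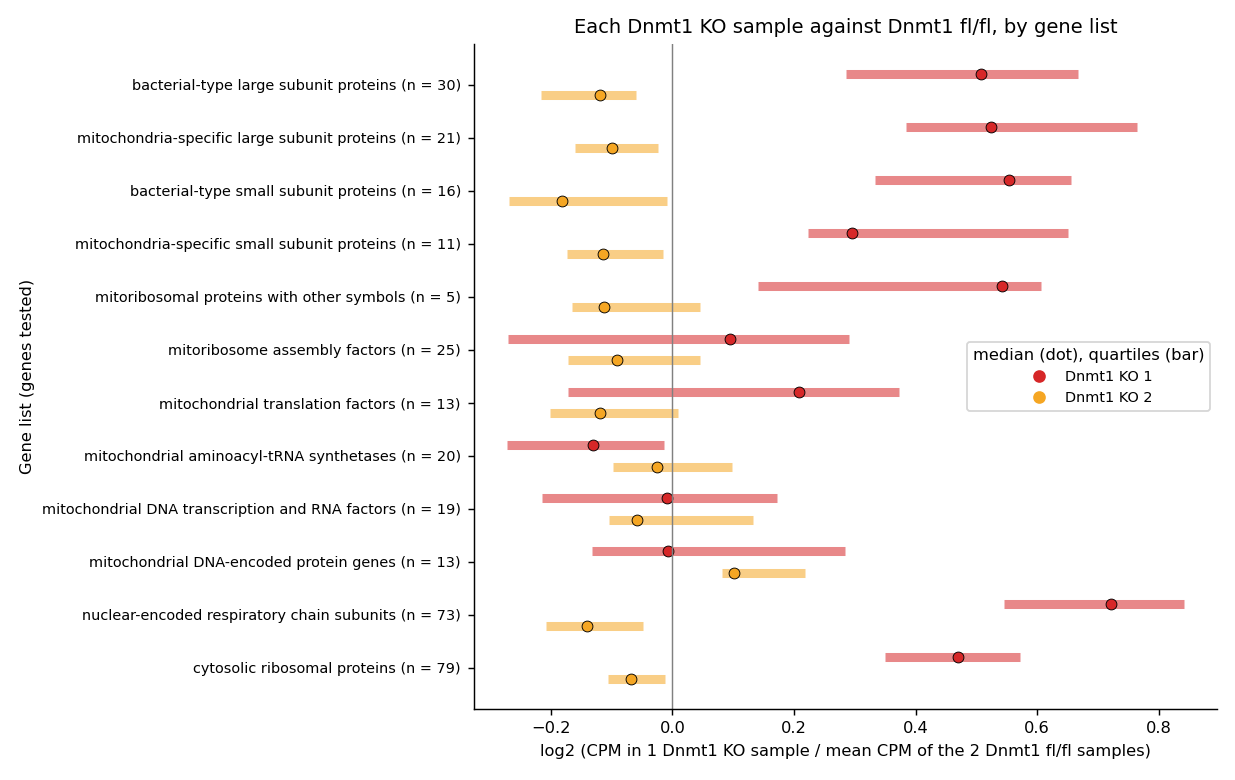
For each list, the median (dot) and quartiles (bar) over its genes of log2 CPM in a Dnmt1 KO sample over the mean of the 2 Dnmt1 fl/fl samples, for Dnmt1 KO replicate 1 (red) and replicate 2 (orange). Red and orange are far apart in the classes of mitochondrial ribosomal proteins, the respiratory chain subunits (median difference 0.83) and the cytosolic ribosomal proteins (0.50), and close together in the synthetases and the mitochondrial DNA-encoded genes.

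The 78 genes lie on 17 chromosomes, with at most 11 on one chromosome. Neighbours were counted if they were protein-coding, on the opposite strand, and started upstream or at most 100 bases inside the gene. Within 1000 bases, 19 of the 78 genes had such a neighbour, and 18 of these neighbours were tested. Mrpl46 and Mrps11, whose starts overlap further, were not counted as neighbours of each other. In 10 of the 18 neighbours Dnmt1 KO replicate 1 was above replicate 2, where this held for all 18 ribosomal partners. Fau, 59 bases from Mrpl49, encodes a ubiquitin-like fusion with a cytosolic ribosomal protein, and its difference between the Dnmt1 KO samples was 0.58 on the log2 scale, against 0.31 for Mrpl49. Ncapd2, a condensin subunit gene 100 bases from Mrpl51, stood at -0.05, against 1.08 for Mrpl51. These neighbours were named after their values were seen.

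Genes with the ETS letters in the promoter window had a median log2 fold change of 0.26 (26 genes) and a median difference between the Dnmt1 KO samples of 0.74, against 0.19 and 0.57 in the 43 genes without them. For the NRF1 letters the medians were 0.20 and 0.54 in 16 genes with them, against 0.22 and 0.66 in 53 without. For the YY1 letters they were 0.16 and 0.68 in 8 genes, against 0.22 and 0.62 in 61. These are descriptions of letters in a window, with no test.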

How the data were processed

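RNA was sequenced as paired-end reads from 4 samples. The submitters' processing notes name HISAT2 2.0.5, featureCounts 1.5.0-p3, DESeq2 1.20.0 and mm10, and the annotation is not given in the sources used here. The authors deposited one estimated count for each gene symbol and sample, without normalization. Between 72.6% and 76.4% of values in a sample were whole (within 1e-06), and how fractions arose is not stated. Of the 78 genes, 28 had a value that was not whole and 33 share annotated exon bases with another gene. Over 5% of the 100-base stretches of 10 genes also occur in another gene, most in Mrpl53 (75.6%) and Mrps34 (31.2%). The table lists genes with a value above 0 in all 4 samples. A shorter table deposited with it was not used, and 0 value columns were left unmapped.

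Counts were rounded, filtered with filterByExpr, scaled by TMM (factors 0.91 to 1.04) and compared with edgeR 4.0.16 (R 4.3.3), using the two-sided quasi-likelihood F-test with Benjamini-Hochberg adjustment over 12542 genes. SEs come from the same statistic. The floor of 3 counts was 0.124 to 0.148 CPM and covers counting error only, and counts of the 78 genes ran from 85.5 to 1487 per sample. Other fits tried were limma-voom (limma 3.58.1), DESeq2 1.42.0, further scalings and filters, a replicate block, a length correction (loess, span 0.5, on log2 CPM with prior count 1 against the longest GENCODE M21 transcript) and leaving out each sample. The models were tested on simulated data. Summaries used Python 3.11.15. The labels do not say that replicate numbers pair samples. The genotype samples differed by more than counting noise (chi-square per degree of freedom 39.7 and 159), so none were merged.

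Genes and lists were chosen with earlier results of these data known. Named were genes whose genotypes did not overlap and whose change was among the 8 largest of their symbol family in either direction, genes with an unadjusted p under 0.05, the 3 highest and 3 lowest per family by level per length, the 3 per family with the widest gap between Dnmt1 KO samples, the Mrps18 genes, and the extremes of each list. Others, such as those called without a sample, were named after their values were seen. Besides the marker lists in the text, summed CPM in Dnmt1 fl/fl replicates 1 and 2 and Dnmt1 KO replicates 1 and 2 was 571, 837, 514 and 702 for monocytes, 162, 235, 104 and 146 for resident peritoneal macrophages, 19.4, 29.1, 23.3 and 25.5 for T cells, 12.6, 10.6, 10.1 and 8.69 for mast cells, 11.8, 8.21, 7.47 and 8.43 for eosinophils (2 of 5 markers in the table), 0.702, 0.0869, 0.216 and 0.829 for erythroid cells (1 of 5), and 31.7, 51.7, 48.3 and 46.7 for proliferating cells.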

Additional observations from a re-analysis of the deposited data

How the results depend on the processing

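The median log2 fold change of the 78 genes kept its sign under every alternative except the fit without Dnmt1 KO replicate 1. Leaving out each sample in turn moved it from -0.12 to 0.53 (Mrpl -0.12 to 0.52, Mrps -0.15 to 0.55), the genes above 0 from 11 to 76, those below 0 from 2 to 67, those not overlapping from 3 to 74 higher and from 2 to 50 lower, unadjusted calls from 0 to 44 and adjusted calls from 0 to 15. The shares over all genes for the calls and the genes not overlapping at the ends of these ranges are given above. Without Dnmt1 KO replicate 1 the medians were -0.12 for all 78 and for Mrpl and -0.15 for Mrps. Among the 22 genes named by the rule other than as list extremes alone, 16 turned below 0 without Dnmt1 KO replicate 1. Their ranges over the 4 fits that leave out a sample were: Mrps28 -0.71 to 0.92, Mrps11 -0.43 to 0.55, Mrps18b -0.40 to 0.69, Mrps18c -0.27 to 0.65, Mrps10 -0.26 to 0.54, Mrpl20 -0.25 to 0.70, Mrpl51 -0.24 to 0.84, Mrpl12 -0.24 to 0.81, Mrpl52 -0.24 to 0.80, Mrps18a -0.19 to 0.68, Mrps22 -0.16 to 0.16, Mrpl54 -0.12 to 0.90, Mrps35 -0.11 to 0.30, Mrpl19 -0.075 to 0.30, Mrpl47 -0.063 to 0.25 and Mrps21 -0.02 to 0.75. Of the 78 genes named only as list extremes, Mrpl28 (-0.06 to 0.89) and Mrps36 (-0.06 to 0.80) turned below 0 as well. Without Dnmt1 fl/fl replicate 1, Mrps11 stood at -0.029. With library totals alone as the scaling, the median was 0.13 and that of all genes -0.062, 14 genes were below 0 and 5 were not overlapping and lower, and Mrps22 stood at -0.069. By limma-voom Mrps22 was at -0.0031. With the length correction 10 genes were below 0, 10 were not overlapping and higher and 1 lower, and Mrps11 was at -0.032. Restricting the group, after the data were seen, to the 36 genes with whole values and no shared exon left 33 above 0 and 3 below. Of these 36 genes, 0 were not overlapping and higher (background 8.14%) and 1 was not overlapping and lower (background 8.56%). Fits on all 4 samples gave 0 adjusted calls each. The causes were not tested.

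The replicate block gave a median of 0.17 and 72 genes above 0, and with the length correction 11 genes fell below 0, Mrps11 at -0.055 and Mrps28 at -0.038. The block changed no call. Same-numbered samples deviated in opposite directions (correlation -0.34 over 12542 genes), and the numbers are not known to pair samples. The crossed pairing, added after the data were seen, called 0 of the 78 genes.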
